A study of Drosophila melanogaster with 23 samples.

Results

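Bicoid (Bcd) binding was set against Zelda (Zld) binding in the chromatin of Drosophila melanogaster embryos, all of the wild-type strain Oregon-R and aged 2 to 3 h after egg laying. A Bcd site is a stretch of at least 50 bp that was covered by an interval in each of the 3 Bcd peak lists. Of 37281 Bcd sites, 21980 (59.0%) overlapped a stretch of at least 50 bp covered in all 3 Zld lists, and these are called sites with Zld. A further 8214 sites (22.0%) overlapped no interval of any Zld list and are called sites without Zld. The remaining 7087 sites (19.0%) overlapped a Zld interval but no shared Zld stretch: 3515 in a single Zld list, 3368 in 2 lists and 204 in 3 lists. They form an intermediate class.

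Bcd is a homeodomain protein laid down as maternal RNA at the anterior pole, and its gradient switches on gap genes and head genes. Zld is a zinc finger protein supplied maternally to the whole embryo, and is known as a pioneer factor that opens chromatin and allows the first genes of the zygote to be transcribed. H3K27ac is an acetylation of histone H3 found at active promoters and enhancers, and H3K4me1 is a methylation found mainly at enhancers.

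The libraries came from ChIP-nexus, a chromatin immunoprecipitation in which an exonuclease trims bound fragments towards the protein. There were 3 libraries each for Bcd, Zld and 4 other factors, and 2 ChIP-seq libraries for each mark. The other factors were Caudal (Cad), a homeodomain activator of the posterior, Dorsal (Dl) and Twist (Twi), activators of the ventral side, and GAGA factor (GAF), which binds GA repeats and opens promoters. All came from pooled whole embryos of the same genotype and age, so binding of both factors at a site does not show that they were bound in the same nucleus. The labels do not say whether the libraries of a factor came from separate collections, and spreads between them may be technical. The Bcd lists held 60625, 55736 and 52191 intervals and the Zld lists 48294, 51386 and 58434. Read depth is unknown, because the lists hold no read counts. For this reason the absence of an interval means only that none was called. Both classes are defined by the lists themselves, so their sizes are a description. The chromosome arms (X, 4 and both arms of the large autosomes) held 31776 Bcd sites: 17788 with Zld, 7851 without Zld and 6137 intermediate. From the other side, over all sequences, 21915 of 35808 Zld stretches (61.2%) overlapped a Bcd site, and 5720 (16.0%) overlapped no Bcd interval. The values that follow refer to the arms.

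Bcd and Zld lay close together where they shared a site, but not as close as replicates of the same factor. Each library was represented at a site by the summit of its strongest overlapping interval. The distance of a pair was the median from there to the nearest summit in the other library's list, averaged over both directions. It averaged 47.8 bp over the 9 pairs of a Bcd and a Zld library, with a range of 45 to 53 bp. Between Bcd libraries it was 28.5, 30 and 22.5 bp, and between Zld libraries 18.5, 22 and 20 bp. Every pair of different factors thus exceeded every pair of the same factor, by 24.2 bp on average. The exact one-sided permutation test over all 10 ways to split the 6 libraries into trios gave p = 0.10, the smallest it can give. With the 5000 strongest intervals of each list the difference was 40.4 bp. Measured between the strongest summits of both libraries at a site, it was 25.5 bp.

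**Figure D1:**
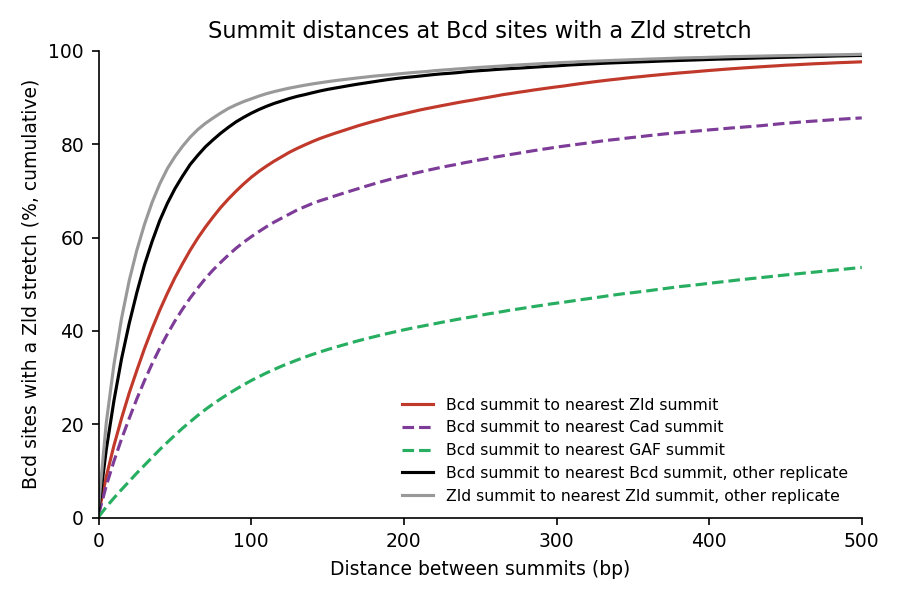
Cumulative share of the 17788 Bcd sites with Zld (y axis, %) whose summits lay within a given distance of the nearest summit of another library (x axis, bp), averaged over library pairs. The Bcd-to-Zld curve reaches 51.4% at 50 bp and lies between the replicate curves and those to Cad and GAF.

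Within 25 bp of the nearest Zld summit lay 31.6% of Bcd summits at sites with Zld (28.8% to 33.1% over the 9 pairs). Within 50 bp lay 51.4%, and within 100 bp 72.9%. The same sites lay farther from summits of the other factors, which the choice of sites by Zld favours. The median distance to the nearest summit was 67.3 bp for Cad, 84.6 bp for Twi, 96.2 bp for Dl and 401 bp for GAF. Sites without Zld were chosen to overlap no Zld interval, so a longer distance to Zld follows from the choice. The nearest Zld summit was at a median of 1186 bp there (1080 to 1245 bp). Bcd replicates were at 30.5 bp (26 to 34 bp).

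The distance to Zld stood out most from the replicate distance at strong Bcd sites. Bcd sites were ordered by the mean rank of their strongest interval in the 3 Bcd lists, rank 1 having the highest −log10 p, and divided into 5 bins of equal size. In bin 1, the strongest, the median Bcd-to-Zld distance was 45.1 bp (44 to 47 bp over pairs) beside a Bcd-to-Bcd distance of 14.8 bp (12 to 17 bp). In bin 5, the weakest, the distances were 61.6 bp (55 to 69 bp) and 54.9 bp (48 to 59 bp), and their ranges overlapped. A list gives a single summit for each interval, so a wide interval with several binding positions is represented by the strongest of them.

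Sites with Zld were the stronger and wider Bcd sites. In the 3 Bcd lists their median rank was 12796, 13330 and 14092, against 23553, 22841 and 24015 for sites without Zld. The median fold enrichment, the authors' own value for a peak, was 3.65, 3.74 and 3.20 with Zld and 2.78, 2.84 and 2.52 without Zld. Intermediate sites had median ranks of 23499, 23036 and 23851, close to those of sites without Zld. The median width was 307 bp with Zld, 192 bp without Zld and 209 bp for intermediate sites. A wider site can more easily touch a Zld stretch, and the part of width in the class was not tested.

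All of the 100 strongest Bcd sites had Zld, as did 197 of the 200 strongest. Zld was not alone there, since 28 of the 100 also had all 4 other factors, beside 18.7% of all sites with Zld. Of the 1000 strongest, 884 had Zld, 55 had none and 61 were intermediate. Sites with Zld made up 79.9% of bin 1 and 33.4% of bin 5, and sites without Zld 10.1% of bin 1 and 36.6% of bin 5.

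The histone marks were more frequent at sites with Zld in every Bcd library. Bcd summits inside a stretch covered in both H3K27ac lists made up 23.9%, 23.0% and 23.9% of sites with Zld, and 8.09%, 8.04% and 8.25% of sites without Zld. The difference was 15.5 ± 0.444 percentage points (SD, n = 3 libraries), and the classes did not overlap. For H3K4me1 the shares were 5.65%, 5.70% and 5.63% with Zld, and 1.18%, 1.21% and 1.25% without Zld, a difference of 4.45 ± 0.055 points (SD, n = 3). Exact two-sided sign-flip tests over the 3 libraries gave p = 0.25 for each mark, the smallest that 3 libraries allow. Sites are shared by the 3 Bcd lists, so each library counted the same 17788 and 7851 sites against the same mark stretches. Only the summit position differed between libraries, so the SD and these tests do not measure independent replication of the class difference. Intermediate sites resembled sites without Zld, with 8.79% in H3K27ac and 1.09% in H3K4me1.

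The size of these differences depended on what was counted. The H3K27ac difference was 8.51 points among summits farther than 500 bp from a gene end and 30.6 points when summits within 500 bp of the mark were counted. The second H3K4me1 list is the shorter, with 6546 intervals beside 13403, and without H3K4me1 replicate 2 its difference was 10.97 points.

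Around sites with Zld the marks formed a local pattern, which sites without Zld lacked for H3K27ac and showed only weakly for H3K4me1. Coverage by H3K27ac with Zld was 23.6% at the Bcd summit, 32.7% at 300 bp on either side, 19.0% at 1000 bp and 10.7% at 3000 bp. Without Zld it was 8.13% at the summit, 8.07% at 500 bp, 8.32% at 1000 bp and 8.11% at 3000 bp, a flat line. H3K4me1 with Zld was highest at the summit itself, at 5.66%, and 1.45% at 3000 bp. Without Zld it was also highest at the summit, at 1.21%, with 0.932% at 300 bp and 1.03% at 3000 bp.

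**Figure D2:**
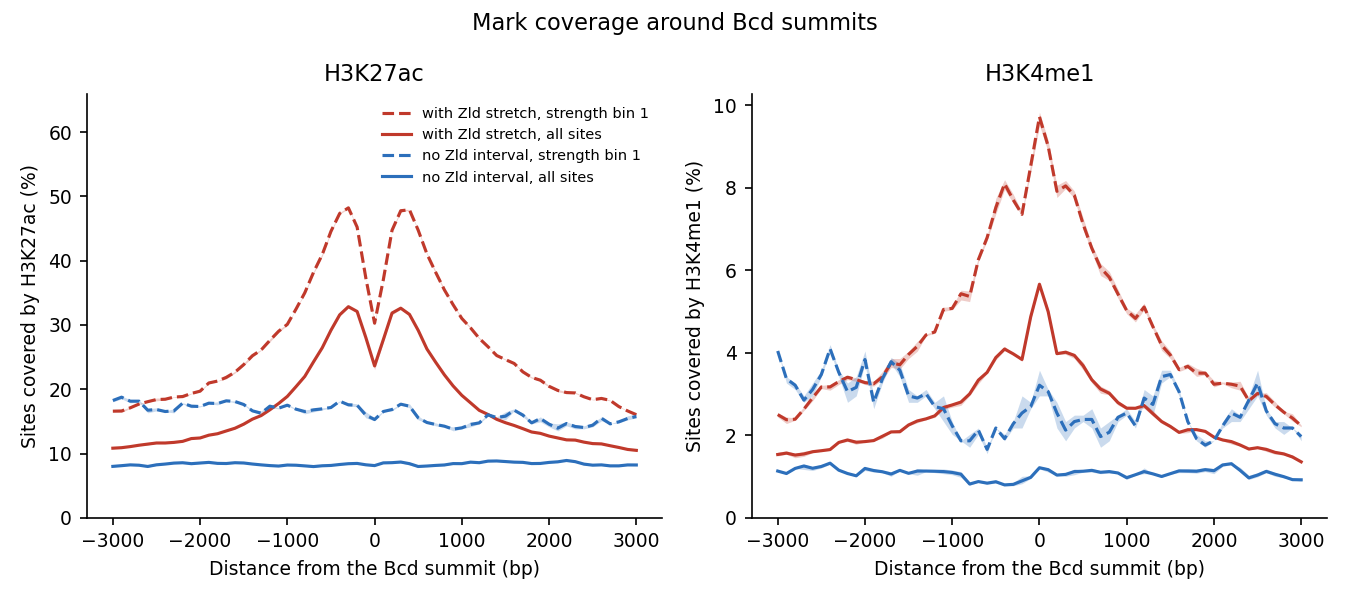
Share of Bcd sites covered by H3K27ac (left) or H3K4me1 (right) on the y axis (%), by distance from the Bcd summit (x axis, bp), for sites with Zld (red) and without Zld (blue). Solid lines are all sites and dashed lines strength bin 1, as means of 3 Bcd libraries with bands for their range; for sites with Zld, H3K27ac dips at the summit between shoulders at 300 bp.

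The difference was present in every bin of Bcd strength. In bin 1, H3K27ac covered 30.3% ± 0.272 of summits with Zld and 15.3% ± 0.238 without Zld (SD, n = 3 libraries). In bin 3 the shares were 22.8% ± 0.747 with Zld and 10.1% ± 0.256 without Zld, and in bin 5 10.3% ± 0.190 and 4.58% ± 0.163. H3K4me1 covered 9.72% ± 0.177 with Zld and 3.21% ± 0.324 without Zld in bin 1, and 1.48% ± 0.212 and 0.544% ± 0.025 in bin 5. Both marks were thus higher with Zld at the strong and at the weak end, and the share fell towards weak sites in both classes. In bin 1, H3K27ac at 300 bp reached 48.0% with Zld and 17.6% without Zld.

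**Figure D3:**
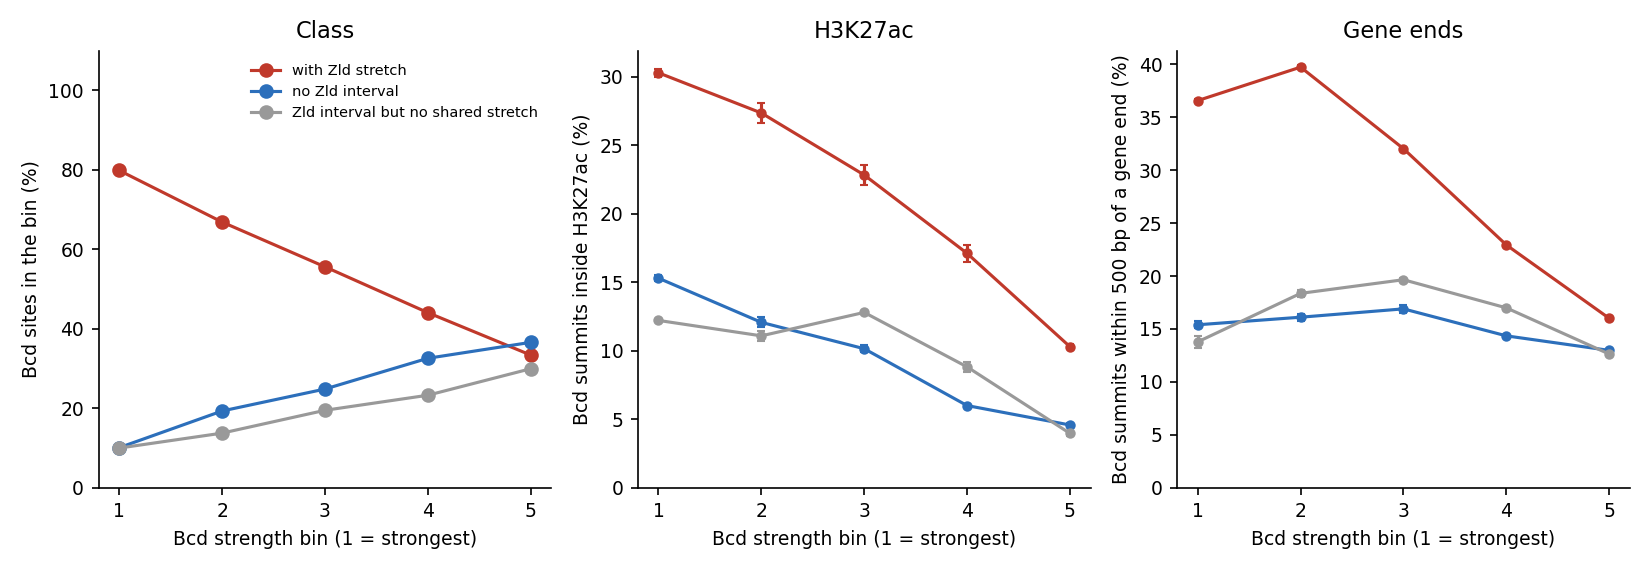
Bcd sites in 5 bins of Bcd strength (x axis, 1 strongest): share of each class (left, %), share of summits inside H3K27ac (middle, %) and within 500 bp of a gene end (right, %). Points in the middle and right panels are means of 3 Bcd libraries with SD bars; sites with Zld are highest in every bin of both panels.

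Marks also followed the strength of Zld. Sites with Zld were divided into 5 bins by the mean rank of their strongest Zld intervals. H3K27ac covered 33.7%, 33.4%, 25.9%, 17.6% and 7.56% of Bcd summits from the strongest to the weakest Zld bin, with SDs of up to 0.824 over the 3 Bcd libraries. The weakest Zld bin thus lay slightly below the 8.13% of sites without Zld. H3K4me1 covered 11.8% in the strongest bin and 1.01% in the weakest. Bcd strength moved along with Zld strength: 57.0% of sites in the strongest Zld bin and 10.8% in the weakest were in Bcd bin 1. The parts of the 2 factors in this gradient were not separated.

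Other factors were present at most sites with Zld and at few sites without Zld. The Bcd summit, as the median of 3 libraries, lay inside a shared Cad stretch at 71.2% of sites with Zld and 9.41% without Zld. For Twi the shares were 68.7% and 12.8%, for Dl 48.8% and 2.88%, and for GAF 33.9% and 4.05%. None of the 4 factors was found at 2284 of 17788 sites with Zld (12.8%) and at 6075 of 7851 sites without Zld (77.4%). All 4 were found at 3323 sites with Zld (18.7%) and 17 without Zld (0.217%).

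When sites with the same number of other patterning factors (Cad, Dl, Twi) were compared, H3K27ac was higher with Zld at sites with 0 or 1 of them. With none, H3K27ac covered 13.6% ± 0.366 of summits with Zld and 6.62% ± 0.060 without Zld (SD, n = 3). With 1 the shares were 18.3% ± 0.423 and 10.7% ± 0.343. With 2 they were 24.5% ± 0.494 with Zld and 26.7% ± 0.679 without Zld, over 255 sites in the class without Zld. With 3 they were 29.7% ± 0.699 with Zld and 30.7% ± 3.93 without Zld, over 64 sites in the class without Zld. H3K4me1 covered 1.74% ± 0.066 with Zld and 0.820% ± 0.056 without Zld where none of the 3 was found, and 2.98% ± 0.084 and 2.18% ± 0.120 where 1 was found. With 2 the H3K4me1 shares were 5.48% ± 0.124 with Zld and 4.58% ± 0.599 without Zld. With 3 they were 8.70% ± 0.008 with Zld and 7.29% ± 2.39 without Zld, a difference within the spread of the libraries.

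Sites with Zld were nearer to genes' ends. Gene ends of protein-coding genes were at most 500 bp away at 31.9%, 31.8% and 31.8% of Bcd summits with Zld, and 14.8%, 15.0% and 14.7% without Zld, in the 3 libraries. The classes did not overlap. The difference was 17.0 ± 0.120 points (SD, n = 3, exact two-sided sign-flip p = 0.25, the smallest possible), again over the same sites in each library. With the 10000 strongest intervals it was 26.2 points. The median distance to a gene end was 2314 bp with Zld and 3396 bp without Zld. In contrast, fewer summits with Zld lay inside the body of a protein-coding gene, 61.3% ± 0.359 against 68.1% ± 0.048 without Zld. The gene table gives no strand, so starts and ends of genes cannot be told apart here. At sites with none of the other patterning factors the share near gene ends was 19.98% ± 0.303 with Zld and 14.1% ± 0.070 without Zld. With 1 it was 22.4% ± 0.279 with Zld and 15.3% ± 0.396 without Zld, and with 2 it was 32.8% ± 0.073 and 24.2% ± 0.906. With 3 it was 40.6% ± 0.134 with Zld and 42.2% ± 1.56 without Zld, over the 64 sites in the class without Zld.

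The classes were spread over all arms. Sites with Zld made up 54.3% of Bcd sites on 3R, the lowest share, and 59.0% on X, the highest. Sites without Zld ranged between 18.1% on chromosome 4, of 447 sites, and 26.0% on 2R.

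To set Bcd beside the other factors, the sites of Cad, Dl, Twi and GAF were split by Zld in the same way. Sites with Zld made up 56.0% for Bcd, 56.5% for Cad, 78.7% for Dl, 51.0% for Twi and 50.9% for GAF. They were the stronger sites of every factor. The median rank, as a percentage of the list, was lower with Zld by a difference of −17.9 points for Bcd. That difference was −20.8 for Cad, −21.2 for Dl, −18.8 for Twi and −12.6 for GAF. The H3K27ac difference averaged 15.5 points for Bcd and 16.0 for the other 12 libraries, which ranged between 13.9 and 20.1. The H3K4me1 difference was 4.45 points for Bcd and 3.94 for the others, and the gene end difference 17.0 points for Bcd and 16.7 for the others. None of these contrasts passed an exact two-sided permutation test over all ways to pick 3 of the 15 libraries (adjusted p = 0.91 for each, Benjamini-Hochberg over 3 tests). The sizes of Bcd minus the others were −0.462, 0.511 and 0.267 points. In the strongest bin of each factor's sites, a setting added once the values were known, the H3K27ac difference was 15.0 ± 0.289 points for Bcd (SD, n = 3), 9.18 for Cad, 11.6 for Twi, 4.21 for GAF and 1.18 for Dl. Bcd exceeded the others by 8.43 points, and all 3 Bcd libraries lay above the other 12. The exact permutation test over libraries gave adjusted p = 0.013, but it treats libraries as exchangeable, although those of a factor lay close together. With the mean of each factor as 1 value, the exact permutation test gave adjusted p = 0.8, and 5 factors allow no unadjusted p below 0.2, so the contrast did not pass with the factor as the unit. The Dl value rests on 122 sites without Zld.

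**Figure D4:**
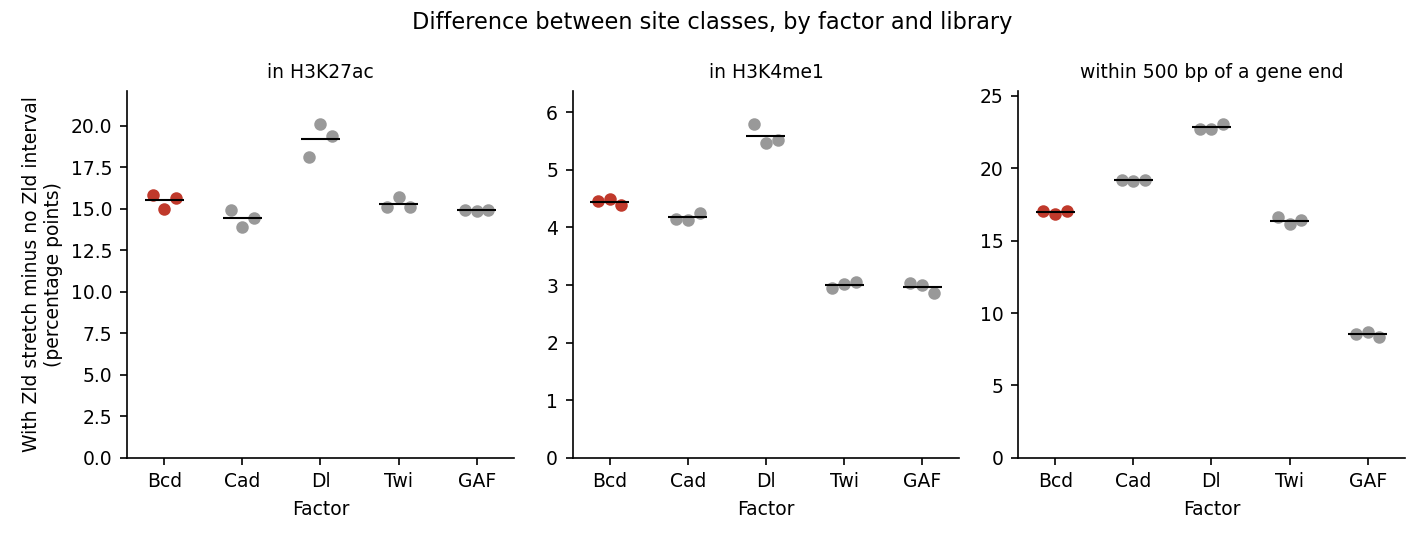
Share of summits at sites with Zld minus the share at sites without Zld (y axis, percentage points) in H3K27ac, H3K4me1 and within 500 bp of a gene end, for each factor (x axis). Points are libraries and bars the means of 3; the Bcd libraries (red) lie within the range of the other factors in all 3 panels.

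At the genes of the anteroposterior axis, the strongest Bcd site within 10 kb had Zld at each gene examined when all intervals were used. This held for 5 of 5 trunk gap genes, 9 of 9 head gap genes and 7 of 7 pair-rule genes, beside 77.2% of all 13922 protein-coding genes. It also held for 10 of 10 dorsoventral genes, 8 of 8 early zygotic genes and 82 of 92 ribosomal protein genes. A site without Zld was the strongest at 5 ribosomal protein genes and at 11.6% of all genes. Bcd sites are dense, since 95.7% of all genes had a site with Zld and 79.3% a site without Zld within 10 kb. The strength of the sites set the lists apart more than their class. One of the 200 strongest Bcd sites lay within 10 kb of 4 of 5 trunk gap genes, 7 of 9 head gap genes and 7 of 7 pair-rule genes, beside 4.35% of all genes. The counts were 2 of 10 for dorsoventral genes, 4 of 8 for early zygotic genes and 1 of 92 for ribosomal protein genes.

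Among trunk gap genes, hb (a zinc finger repressor and a classic Bcd target) had the strongest site, 3R:8699062-8699875 in dm6, at 1609 bp from the gene. It ranked 13, 16 and 17 in the Bcd lists and 1221, 1278 and 712 in the Zld lists. Its Bcd and Zld summits were 194 bp apart (179 to 205 bp over the 9 pairs), while the Bcd summits fell within 11 bp of each other. The Bcd summits of all 3 Bcd libraries lay inside H3K27ac.

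At Kr, the zinc finger gap gene of the central trunk, the site 2R:25222493-25223397 ranked 15, 17 and 20 for Bcd and 1174, 1283 and 516 for Zld. Its summits were also 194 bp apart (187 to 195 bp), with Bcd summits within 1 bp. Both sites thus had a firm offset between the factors, far larger than the spread of the Bcd replicates.

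At kni, which encodes a nuclear receptor type of gap protein, 3L:20697068-20697606 ranked 40, 45 and 46 for Bcd and 779, 711 and 322 for Zld, with summits 115 bp apart (70 to 141 bp). At gt, a bZIP gap gene, X:2438201-2439309 lay 9785 bp from the gene and ranked 111, 94 and 103 for Bcd. Its Bcd and Zld summits were at a median of 15 bp (1 to 100 bp), below the median of 85 bp between Bcd replicates. At knrl, the neighbour and relative of kni, the Bcd site ranked 253, 239 and 260, and the Zld intervals there ranked 9543, 15058 and 10772.

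Among head gap genes, tll, an orphan nuclear receptor of the embryo's ends, came first. Its site 3R:30849800-30850290 ranked 23, 22 and 27 for Bcd and 810, 727 and 232 for Zld, with summits 66 bp apart (31 to 92 bp). The homeodomain gene oc (orthodenticle) had X:8643136-8643858 within the gene, ranked 61, 53 and 63 for Bcd and 3508, 3576 and 2463 for Zld, with summits 135 bp apart (108 to 142 bp). The zinc finger gene btd had X:9691057-9691624, ranked 60, 54 and 70 for Bcd and 7904, 8259 and 3325 for Zld. The Bcd and Zld summits coincided within 8 bp in all 9 pairs. This site lay farther than 500 bp from H3K27ac.

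The homeodomain gene ems had 3R:13911077-13911837 (Bcd ranks 79, 76 and 87), with summits 20 bp apart. The forkhead genes slp1 and slp2 share the site 2L:3833657-3834574 (Bcd ranks 62, 55 and 61), where the Bcd summits themselves differed by up to 285 bp. The site of the bZIP gene cnc ranked 110, 133 and 132, that of the zinc finger gene hkb 314, 334 and 366, and that of the forkhead gene croc 577, 514 and 603. Of the 14 gap genes, croc thus had the weakest site, still in the upper 500 of all Bcd sites at position 489.

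All pair-rule genes were named by their site among the 200 strongest. The site near eve (a homeodomain repressor), 2R:9985744-9986768, ranked 27, 26 and 35 for Bcd, with summits 110 bp apart from Zld (103 to 117 bp) and Bcd replicates within 7 bp. The site in run (a Runt domain factor), X:20691186-20691812, ranked 46, 35 and 51, with summits 29 bp apart. The other positions among all Bcd sites were 35 for prd, 48 for hry (hairy), 50 for ftz, 135 for opa and 177 for odd. At opa the summits were 395 bp apart (385 to 403 bp) and at prd 183 bp (177 to 190 bp), again with Bcd replicates within 13 and 6 bp.

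Outside the axis, the same threshold named zen (position 45) and tld (position 67), early genes of the dorsal side. It also named the cellularization genes bnk (34) and slam (56), the X-linked sex determination gene sisA (87), Z600 (112), which encodes a mitotic inhibitor, and RpL32 (137), a ribosomal protein gene. All had Zld. A site within 10 kb need not act on the gene: the site counted for Kr lies in CG9380, and the nearest gene to the eve site is TER94.

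The loci of these genes also held strong Bcd sites without Zld. The strongest of that class, X:20692485-20692928 within run, ranked 182, 149 and 185 in the Bcd lists and stood at position 133 of all sites. Its Bcd summits agreed within 3 bp, and the nearest Zld summit was 1212 bp away. No Cad, Dl, Twi or GAF stretch covered its summit. Next came 3R:30850809-30851320 near tll, with ranks 229, 219 and 208 and the nearest Zld summit 937 bp away. Its Bcd summits lay inside H3K27ac in all 3 Bcd libraries. The others of the strongest 5 were X:7044535-7045291 in CG12541, with ranks 259, 242 and 323, 2L:3828934-3829547 near slp1, with ranks 335, 257 and 330, and 2L:1419742-1420127 in robo2, an axon guidance receptor gene, with ranks 411, 283 and 287. All 5 lay within 500 bp of H3K27ac. Further down the class this was mixed: the site near odd lay that close and the site in drm did not. The share over all sites without Zld is not given here.

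Of the 21 gap and pair-rule genes, 6 had a site without Zld among the 1000 strongest Bcd sites within 10 kb, beside 1.13% of all protein-coding genes. They were gt, slp1, slp2, tll, odd and run, and slp1 and slp2 share a site. This count and the sites named in it were chosen after the values were seen. The site near gt, X:2434426-2434762, ranked 732, 655 and 724, and the one near odd, 2L:3608332-3608748, ranked 378, 378 and 456. The counts were 1 of 10 dorsoventral genes, 1 of 8 early zygotic genes and 0 of 92 ribosomal protein genes. The dorsoventral gene is sog, where the intervals of 2 Bcd libraries also span the neighbouring site with Zld and their summits lie there. At hb the strongest site without Zld was at position 19224, and none lay within 10 kb of kni, ems, cnc, eve or ftz.

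**Figure D5:**
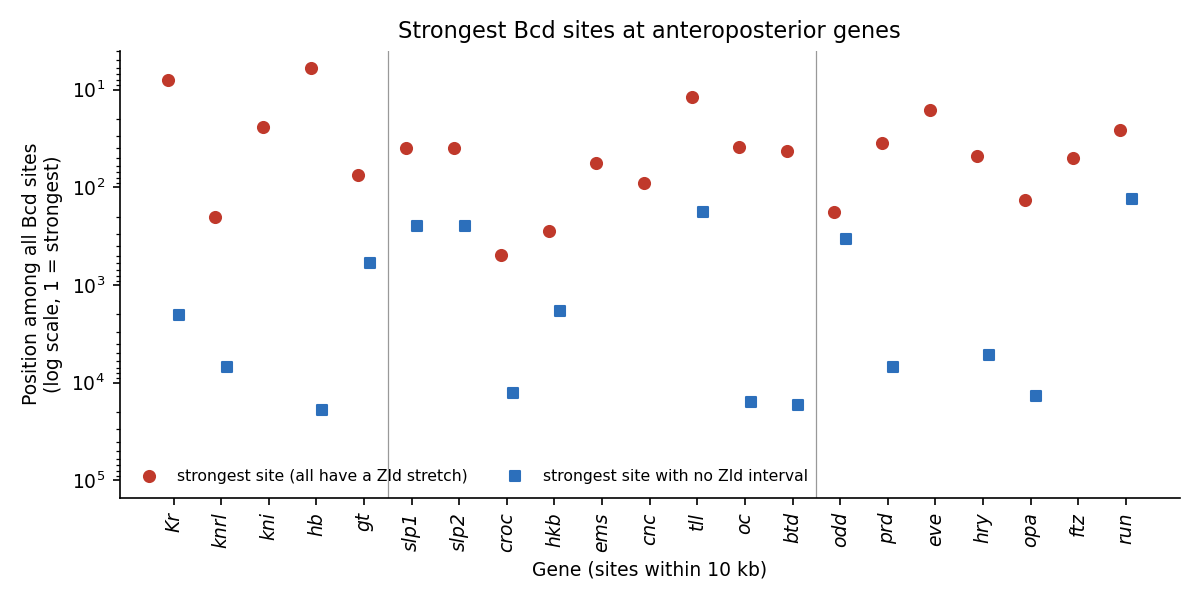
Position of the strongest Bcd site (red, all with Zld) and of the strongest Bcd site without Zld (blue) within 10 kb of each trunk gap, head gap and pair-rule gene (x axis, in that order), among all Bcd sites on the arms (y axis, log scale, 1 strongest). Blue points reach the upper 1000 at gt, slp1, slp2, tll, odd and run, and are missing where no such site lay within 10 kb.

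The 5 strongest sites with Zld lay away from these genes. They were 3R:3169782-3170446 in Pzl, X:22432940-22433268 nearest to CG14621, 3L:25134538-25135079 nearest to UQCR-11, 2R:4868383-4868920 nearest to CG44102 and 2R:1825663-1826726 nearest to CG17684. Their Bcd ranks ran between 3 and 16 and their Zld ranks between 1 and 20. Each was also covered by Cad, Dl, Twi and GAF stretches, and none was within 500 bp of H3K27ac. At the sites in Pzl and near CG17684 the summits of all 6 libraries fell on the same base. Of the 10 strongest Bcd sites, 8 had all 4 other factors and a mean Zld rank within 100, and the other 2 were those of hb and Kr. Among the 100 strongest, 28 sites had all 4 other factors, beside 18.7% of all sites with Zld. Of these 28, 15 lay farther than 5 kb from any protein-coding gene. Another 63 had 3 other factors, of which 7 lay that far. The share of all Bcd sites that lay that far is not given here. Median Bcd-to-Zld distances were 40 bp for the 28 sites and 70 bp for the 63 sites.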

How the data were processed

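The 22 deposited peak lists, 1 per library, were used; the whole cell extract was not used here. Per the submitters' processing notes, cutadapt 2.5, Bowtie2 2.3.5.1 and MACS2 2.2.7.1 and the build dm6 were used; their settings are not given here by any source. Column 5 of the deposited lists is a whole-number score, equal to 10 times the −log10 q rounded down for 98.97% to 100% of the intervals of a list. Column 7 is a fold enrichment (ratio) made by the authors, and the deposited columns 8 and 9 hold −log10 p and −log10 q. These values served to order or select peaks inside a single list and were not compared across lists, since they depend on read depth, which is unknown.

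Groups and replicate numbers came from the titles; the Zld and GAF files carry other numbers than the titles, so numbers of these libraries are uncertain. Intervals were intersected in Python 3.11.15 with NumPy 2.4.6, pandas 2.3.3 and SciPy 1.17.1, and the functions were checked on simulated data. A summit is that of the strongest interval overlapping a site; 93.0% to 94.6% of summits fell inside the site, and neighbouring sites can share an interval. Gene names and ends of 13922 protein-coding genes came from a RefSeq table of Release 6, the release of dm6. Motifs and sequences need a genome, which was not used here. Members, lists and tests were chosen with earlier results of these data known. Named were all gap genes, the 5 strongest sites of each class, members of other lists whose strongest Bcd site was among the 200 strongest, and any feature said to be chosen after its values were seen; kinds of site among the strongest 10 and 100 were also counted after seeing them. No list was identical to another. Tests treat libraries, not sites, as replicates. The libraries of a factor share the same sites, so SDs of class shares reflect differences in summit position only.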

Additional observations from a re-analysis of the deposited data

Results flagged for a closer look

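Outside the 6 arms, on the Y chromosome and on unplaced sequences, the lists gave 5505 further Bcd sites, which entered no comparison. Of these, 4192 had Zld, 363 had none and 950 were intermediate. They were noted because they are a signal in data the comparisons do not use. No other value was noted, since groups of 3 libraries are too small for a search for outlying samples.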

How the results depend on the processing

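Of 252 recomputed values under 31 alternatives, 227 counted as unchanged. Tested values had to keep their direction and their side of 0.05. Counts had to stay within a factor of 1.5, and the rank percentile within the SD of the 3 libraries. The sign-flip and summit distance tests cannot fall below 0.05, so only their direction could change. The counts of sites, given here over all sequences, followed the threshold. With the 5000 strongest intervals there were 1668 sites with Zld and 1944 without Zld, with the 10000 strongest 4337 and 2909, and with −log10 q of at least 10 there were 12868 with Zld. Leaving out single Bcd or Zld libraries gave 22860 to 23498 sites with Zld and 9022 to 11382 without Zld. The differences between classes in marks, gene ends and summit distance were positive under each of these alternatives, but not at sites matched for 2 or 3 other patterning factors (H3K27ac) or 3 (gene ends). Relative to its size H3K4me1 moved most, to 13.0 points with intervals of either list, 11.8 with the 5000 strongest and 9.94 with the 10000 strongest intervals, 10.5 with summits within 500 bp and 8.59 with any overlap. The H3K27ac difference was 30.1 points with any overlap. The median rank percentile with Zld minus that without Zld was −17.9 points, −9.84 with the 5000 and −9.38 with the 10000 strongest intervals, and −23.9 to −17.1 without single libraries. Ribosomal protein genes whose strongest site had Zld numbered 29 and 54 with the 5000 and 10000 strongest intervals, where fewer sites enter. With the 5000 strongest intervals it had Zld at 4 of 5 trunk gap, 7 of 9 head gap, 6 of 7 pair-rule and 9 of 10 dorsoventral genes. With the 10000 strongest, trunk gap genes again numbered 4 of 5 and these other lists were complete. Early zygotic genes numbered 7 of 8 without Bcd replicate 3.

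The contrasts of Bcd with the other factors changed sign easily. For H3K27ac they were 4.84 (5000 strongest), 0.959 (10000 strongest), 1.35 (−log10 q of at least 10), 0.317 (any overlap) and 8.43 points (strongest bin), for H3K4me1 −0.895 (within 500 bp) and −0.171 points (any overlap), and for gene ends −1.30 (5000 strongest) and −1.42 points (1000 bp). Without single libraries the gene end contrast lay between −0.514 and 1.41 points. Only the strongest bin passed, with libraries as the unit; with the mean of each factor as 1 value it was again 8.43 points and did not pass (exact permutation, adjusted p = 0.8), and the cause was not tested. With replicate numbers as a block the contrasts stayed at −0.462, 0.511 and 0.267 points (exact permutation, adjusted p = 0.92 each), and no call changed. Of 45 pairs of same-numbered libraries, 0 had a correlation of deviations over 0.1, so no sign of pairing by number was seen. The check cannot exclude shared collections, because the numbers of the Zld and GAF libraries are uncertain.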
